A study of Homo sapiens with 8 samples.

Results

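The genes described here are 10 metastasis genes known to differ between lung-seeking and bone-seeking derivatives of the breast cancer line MDA-MB-231: EREG, PTGS2, ID1, TNC, SPARC, VCAM1, IL13RA2, CXCR4, CTGF (now written CCN2) and CD44. They were chosen by name, with earlier results of these data known, and each was read at its probe with the highest mean over the 8 arrays. Probes were annotated to 8 of the 10 genes, with 13 probes in all, among 15971 genes on 33446 probes. VCAM1 and IL13RA2 were not analysed here.

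MDA-MB-231 is a mesenchymal human breast cancer line. Its cells received 75 nM of a miR-148b precursor (4 arrays) or a negative control (4 arrays), and messenger RNA was measured 48 h later on one-colour Agilent arrays. Each title holds a code from 1 to 3 and, on some arrays, a plus mark, and the labels explain neither. Code 1 stands on miR-148b replicates 1 and 2 and on control replicate 1. The other 5 arrays are of code 2 (miR-148b replicate 3, control replicates 2 and 3) and code 3 (miR-148b replicate 4, control replicate 4), and the plus mark stands on miR-148b replicates 2 and 3 and control replicate 3. Transfection was transient and the cells were of 1 line. The labels call the arrays biological replicates without naming separate cultures. The p-values therefore measure the spread between these arrays, whatever its source.

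Sublines of MDA-MB-231 that were selected in mice for growth in lung or bone differ from the parental cells in a limited set of secreted, surface and matrix proteins. In the lung set, epiregulin and cyclooxygenase 2 (PTGS2) act with matrix metalloproteinases on the tumour vessels, ID1, an inhibitor of differentiation factors, supports growth after arrival, and tenascin C, SPARC, VCAM1 and IL13RA2 act at the matrix or the cell surface. In the bone set, the chemokine receptor CXCR4 guides cells towards CXCL12 in the marrow and CTGF acts on vessels and matrix. CD44, the hyaluronan receptor, is abundant on mesenchymal breast cancer cells.

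The microRNA is shown with its family because all of its members share the seed, bases 2 to 8, which is in capitals and pairs with target messages. The mature sequences are from RefSeq (GRCh38.p14). Sites for this seed in messages were not analysed here.
miR-148b-3p, chr12:54337278-54337299, plus strand: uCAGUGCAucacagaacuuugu
miR-148a-3p, chr7:25949922-25949943, minus strand: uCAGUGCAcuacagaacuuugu
miR-152-3p, chr17:48037174-48037194, minus strand: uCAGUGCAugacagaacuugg

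Promoter windows, 250 bases before to 50 after the gene start, are shown for the 4 genes that separated code 1 from the other codes and for CTGF, which had the widest range over the arrays. They are from RefSeq (GRCh38.p14), which held all 8 genes. Capitals mark matches on either strand to 5 motifs: TATAAA of the TATA box, CATTCC of the TEAD factors through which YAP and TAZ act, the NF-kB site (GGGA, any 4 bases, CC), TGANTCA of AP-1 and TGACGTCA of the cyclic AMP response element. For CXCR4 the most upstream of 3 listed starts is printed.
EREG, chr4:74364895-74365194, plus strand: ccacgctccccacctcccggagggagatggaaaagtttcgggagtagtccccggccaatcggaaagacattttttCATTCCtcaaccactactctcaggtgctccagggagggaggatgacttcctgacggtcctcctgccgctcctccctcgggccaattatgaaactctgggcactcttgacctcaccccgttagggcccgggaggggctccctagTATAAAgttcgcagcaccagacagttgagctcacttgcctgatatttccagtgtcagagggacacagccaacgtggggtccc
CXCR4, chr2:136118100-136118399, minus strand: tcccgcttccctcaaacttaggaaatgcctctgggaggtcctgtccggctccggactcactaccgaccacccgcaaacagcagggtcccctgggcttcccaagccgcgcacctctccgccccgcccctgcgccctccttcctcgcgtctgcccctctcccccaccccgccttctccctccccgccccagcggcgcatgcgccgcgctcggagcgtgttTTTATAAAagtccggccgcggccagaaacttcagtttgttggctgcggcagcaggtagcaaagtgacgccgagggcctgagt
CD44, chr11:35138921-35139220, plus strand: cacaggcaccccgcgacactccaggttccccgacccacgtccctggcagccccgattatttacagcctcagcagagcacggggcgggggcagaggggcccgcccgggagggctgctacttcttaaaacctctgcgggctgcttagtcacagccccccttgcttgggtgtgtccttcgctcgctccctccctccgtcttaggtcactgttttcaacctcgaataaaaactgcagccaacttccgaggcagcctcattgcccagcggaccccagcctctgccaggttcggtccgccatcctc
SPARC, chr5:151686866-151687165, minus strand: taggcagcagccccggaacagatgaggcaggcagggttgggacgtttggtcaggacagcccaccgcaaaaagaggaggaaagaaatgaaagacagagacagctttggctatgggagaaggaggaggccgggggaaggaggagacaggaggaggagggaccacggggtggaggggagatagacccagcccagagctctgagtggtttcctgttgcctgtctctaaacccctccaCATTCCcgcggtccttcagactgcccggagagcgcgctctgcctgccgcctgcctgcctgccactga
CTGF (CCN2), chr6:131951323-131951622, minus strand: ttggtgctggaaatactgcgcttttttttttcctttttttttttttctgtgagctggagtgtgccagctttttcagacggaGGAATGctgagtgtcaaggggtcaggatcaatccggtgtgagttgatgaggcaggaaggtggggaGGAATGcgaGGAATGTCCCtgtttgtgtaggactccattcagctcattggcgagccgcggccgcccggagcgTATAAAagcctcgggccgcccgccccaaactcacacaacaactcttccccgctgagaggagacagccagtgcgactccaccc

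A TATA match lay in a window of 5 of the 8 genes (EREG, PTGS2, ID1, CXCR4 and CTGF), where 11.5% of all 35116 windows hold one. In EREG it spans bases -32 to -27 before the start. No match to TATAAA was found in the windows of CD44, SPARC and TNC. Other forms of the TATA box were not searched, so these windows may still hold one. CTGF had 3 TEAD matches, the last of which overlaps an NF-kB match, and EREG, ID1 and SPARC had 1 each, where 14.0% of all windows hold at least 1. At the first listed start, 2 of the 8 genes had an NF-kB match, CTGF and PTGS2, where 25.6% of all windows hold one. A further NF-kB match lay at the third listed start of CXCR4. No AP-1 or cyclic AMP element match was found in the 8 genes, against 7.71 and 1.85% of all windows. Other forms of these elements were not searched either, so the windows may still hold them. The windows held 12 CpG sites in EREG, 27 in CXCR4, 18 in CD44, 11 in SPARC and 15 in CTGF, where the median window held 14. These matches describe the letters of the windows and do not show binding.

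The arrays had medians from 370.2 to 404 and lower quartiles from 63.9 to 75.5, and 81 to 1038 probes per array had an empty cell, none of them a probe of these genes. The intensities had been normalized before deposit, with the same highest value on every array, and no flag marks a probe as absent. Levels are therefore compared between arrays at 1 probe or, for marker sums, over the same probes, where the brightest weigh most. Of 7 mesenchymal markers, 5 were above the array median on all 8 arrays, among them VIM (lowest 111883) and AXL, while ZEB1 and CDH2 were below it on all. Of 7 measured luminal markers, KRT8, KRT18, KRT19 and EPCAM were above the median on all arrays, and ESR1, GATA3 and CDH1 below it. Of 4 measured leukocyte markers, PTPRC (7.85 to 17.4), CD3E and LYZ were below the median on all arrays, and CD79A (624 to 2071) was above it on all.

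The first comparison set the code 1 arrays against the other codes, with the treatment as a term. CXCR4 and EREG were higher on the code 1 arrays, and CD44 and SPARC were lower. PTGS2, ID1, TNC and CTGF did not pass the test. The 4 genes that passed (limma, Benjamini-Hochberg adjusted over all genes, threshold 0.05) are 50% of the 8, where 26.2% of 15964 genes passed, 12.3% higher and 14% lower. As the 8 were chosen with earlier results of these data known, their share is a description only. At an unadjusted 0.05, 5 of the 8 and 36.9% of all genes passed. The arrays of these 4 genes did not overlap between the code groups, as in 33.3% of all genes measured on every array. The median size of the difference, without its sign, was 1.096 over the 8 genes and 0.33 over all genes on the log2 scale, and the median difference was 0.45 over the 8 and -0.036 over all genes.

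**Figure D1:**
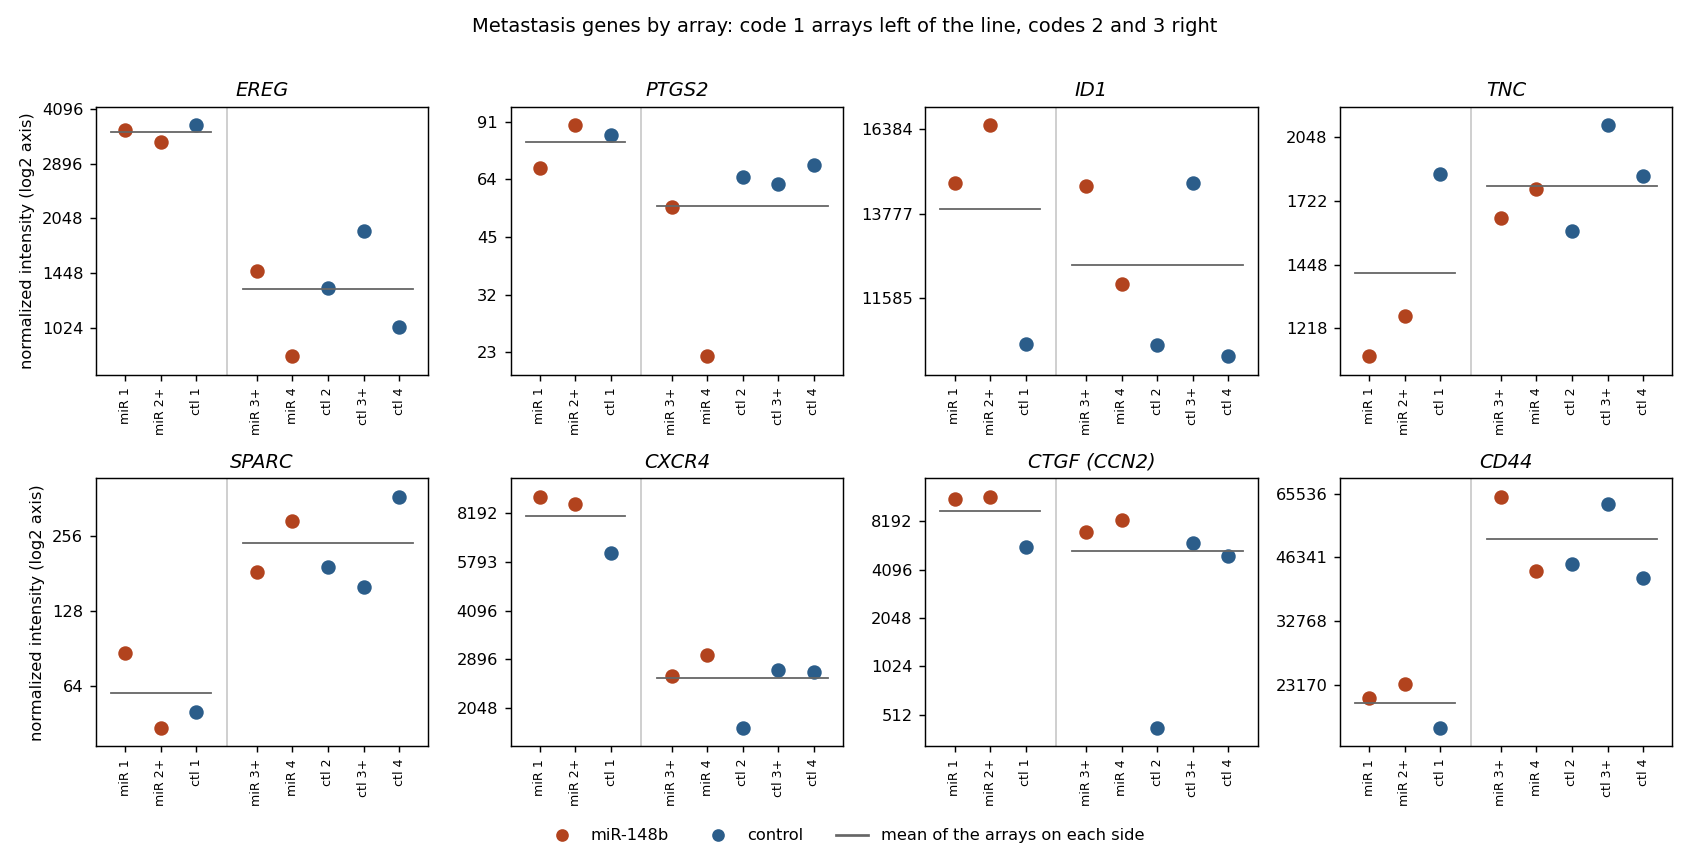
Normalized intensity (log2 axis) of the 8 genes on every array, with miR-148b arrays in red and control arrays in blue, code 1 left and the other codes right of the vertical line, a plus sign after an array's name for the plus mark, and horizontal lines at the arithmetic means of each side (n = 3 and 5). CXCR4 and EREG lie higher and CD44 and SPARC lower on all 3 code 1 arrays, and CTGF is at 426 on control replicate 2 alone.

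EREG encodes epiregulin, a ligand of the EGF receptor. It read 3589, 3319 and 3694 on the code 1 arrays (miR-148b replicates 1 and 2, control replicate 1) and 1467, 857, 1318, 1888 and 1028 on the others (miR-148b replicates 3 and 4, control replicates 2, 3 and 4). Every code 1 array was above every other array, in both treatment groups, and the lowest code 1 array was 1.76 times the highest of the others. The means were 3534 ± 194 (SD, n = 3) on code 1 and 1312 ± 401 (SD, n = 5) on the others, a log2 difference of 1.54 (SE 0.25, limma adjusted p = 0.00417). The dimmer EREG probe differed likewise, at 214, 199.6 and 279.5 on code 1 and 79.2 to 141 on the others.

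PTGS2 encodes the inducible cyclooxygenase, which makes prostaglandins. Its brighter probe was dim, at 68.7, 88.7 and 83.7 on the code 1 arrays and 54.2, 22.1, 64.9, 62.3 and 69.7 on the others. The groups overlapped at this probe, and miR-148b replicate 4 was the lowest array. The log2 difference was 0.82 (SE 0.32) and missed the threshold (limma adjusted p = 0.107), with a 95% interval from 0.067 to 1.58. Without miR-148b replicate 4 it was 0.43. The second PTGS2 probe, as dim, read 75.5, 112 and 93.6 on code 1 and 44.4, 20.8, 39.9, 49.1 and 40.1 on the others, without overlap. Its log2 difference was 1.40 (limma adjusted p = 0.0149 over all probes), and the mean of both probes passed as well, at 1.11 (adjusted p = 0.0327 over all genes).

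CXCR4 encodes the receptor of the chemokine CXCL12. It read 9217, 8769 and 6179 on the code 1 arrays and 2578, 2992, 1779, 2692 and 2649 on the others. All 3 code 1 arrays were at least 2.07 times every other array. The means were 8055 ± 1639.9 (SD, n = 3) on code 1 and 2538 ± 453 (SD, n = 5) on the others, and the log2 difference of 1.57 (SE 0.18) had a limma adjusted p of 7.92e-04. Within the miR-148b arrays the difference was 1.69 and within the control arrays 1.41.

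CD44 encodes the hyaluronan receptor, and its message is spliced into many forms. Its brightest probe read 21501, 23247 and 18336 on the code 1 arrays and 64408, 42991, 44752, 62112 and 41535 on the others. The code 1 arrays were the 3 lowest, and the lowest of the others was 1.79 times the highest code 1 array. The means were 21028 ± 2489.6 (SD, n = 3) and 51159.5 ± 11134 (SD, n = 5), a log2 difference of -1.31 (SE 0.20, limma adjusted p = 0.00278). The 2 dim CD44 probes, whose accessions differ from that of the bright one, were at -0.93 (limma adjusted p = 0.0420 over all probes) and -1.17 (0.0762).

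SPARC encodes a collagen-binding matrix protein. It was below the array median on all arrays, at 86.9, 43.6 and 50.5 on the code 1 arrays and 184, 294, 193, 161 and 368 on the others. The groups did not overlap, and within the other codes the 2 code 3 arrays were the highest. The means were 60.3 ± 23.3 (SD, n = 3) and 240.1 ± 88.0 (SD, n = 5), a log2 difference of -2.02 (SE 0.36, limma adjusted p = 0.00582).

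TNC, the matrix glycoprotein tenascin C, read 1129.7, 1259 and 1854 on the code 1 arrays and 1642, 1777, 1587, 2116 and 1845 on the others. The 2 lowest arrays were the miR-148b arrays of code 1, while the control array of code 1 lay among the others. The log2 difference was -0.29, with a 95% interval from -0.68 to 0.095 (limma adjusted p = 0.254). CTGF, a matricellular protein and a target of YAP and TAZ, was at 0.88 with an interval from -1.14 to 2.90 (adjusted p = 0.529), and at 0.37 without control replicate 2. ID1, an inhibitor of basic helix-loop-helix factors, was at 0.074 with an interval from -0.34 to 0.49 (adjusted p = 0.824).

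With only the miR-148b arrays, 2 against 2, CXCR4 alone passed, and the log2 differences of EREG, CD44 and SPARC were 1.62, -1.23 and -1.92, with limma adjusted p of 0.0654, 0.0752 and 0.0904 over these 4 arrays. Without control replicate 1, the only control array of code 1, SPARC also missed the threshold (0.0633). Some marker genes, of other cell types among them, differed between the code groups, in mixed directions within each cell type. The summed level of the 5 measured fibroblast markers was 238 to 270.2 on code 1 and 1419 to 1634 on the others. The dim LUM was empty on every code 1 array and counted as 0 in those sums only, while it averaged 71.5 on the others. PDGFRB averaged 157 on code 1 against 949, and COL1A2 19.3 against 400.0. COL1A1 differed less, at 61.1 against 78.6. DCN was higher on code 1, at 15.9 against 12.95, and read at most 25.9 on any array. The summed level of the 4 endothelial markers was 351 to 363 on code 1 and 182 to 229.7 on the others, with PECAM1 at 257 against 91.0. Of the other 3 endothelial markers, VWF averaged 36.7 on code 1 against 44.2, KDR 49.1 against 52.5 and CDH5 13.7 against 11.9. The 4 leukocyte markers summed to 807 to 1843 on code 1 and 923 to 2253 on the others, so the sums overlapped. CD79A averaged 1134 on code 1 against 1558. The dimmer CD3E (156 against 132), PTPRC (14.2 against 10.9) and LYZ (24.0 against 18.6) were higher on code 1. The 7 measured luminal markers summed to 176924 to 208345 on code 1 and 151077 to 173853 on the others. KRT18 (86834.5 against 71783), KRT19 (84080 against 68051) and CDH1 were higher on code 1, and KRT8, EPCAM, ESR1 and GATA3 (107 against 277) lower. The 7 mesenchymal markers summed to 269633 to 300264 against 223753 to 264222. VIM (167667 against 119954), FN1 and MSN were higher on code 1, and AXL (37220 against 58222), CAV1, ZEB1 and CDH2 lower. The part of these genes in the differences of CXCR4, EREG, CD44 and SPARC was not tested, and in bulk RNA fewer cells of a type and less RNA per cell cannot be told apart.

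The second comparison, which the study was designed for, set miR-148b against control. None of the 8 genes passed the test (limma adjusted p from 0.846 to 0.941), as none of all 15971 genes did (0%). At an unadjusted 0.05, 0 of the 8 and 856 genes (5.36%) passed. The 8 genes were split, with 4 above and 4 below control, and the median log2 difference was 0.0064, against -0.027 over all genes. The miR-148b arrays of CTGF did not overlap with the control arrays, which makes 1 of the 8 genes, where 4.01% of all genes did not overlap, 1.6% with miR-148b higher and 2.42% with miR-148b lower.

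**Figure D2:**
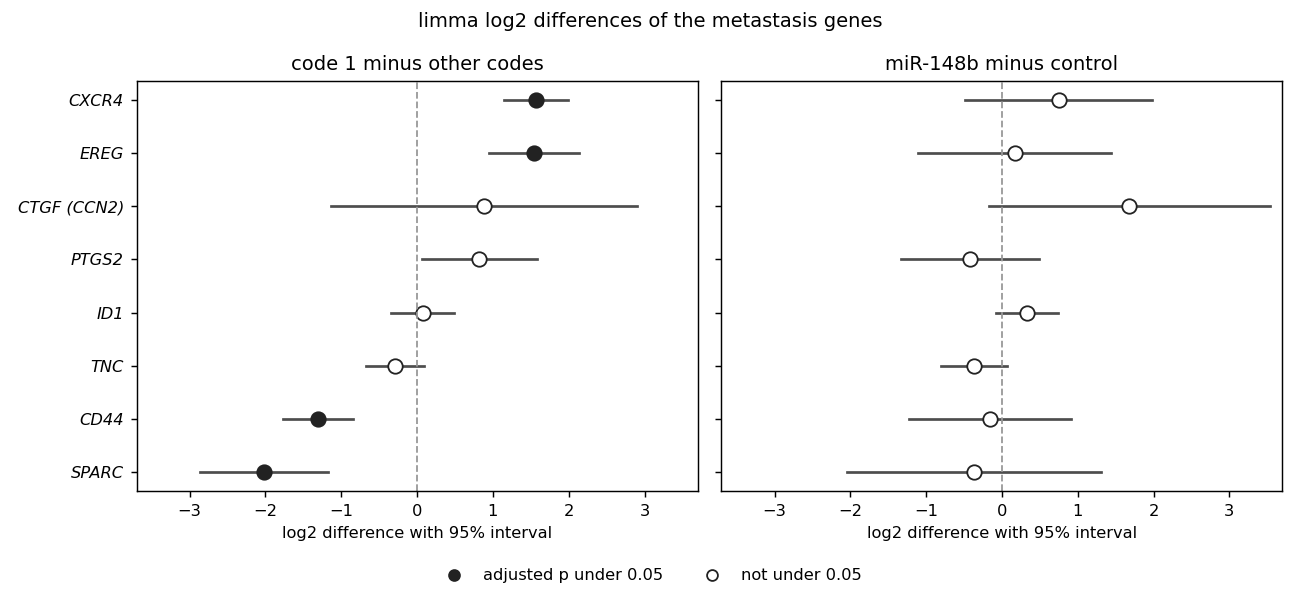
Log2 differences of the 8 genes from limma with their 95% intervals, code 1 minus other codes at left and miR-148b minus control at right, with filled points for adjusted p under 0.05. CXCR4, EREG, CD44 and SPARC are filled at left (1.57, 1.54, -1.31 and -2.02), and no point is filled at right.

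CTGF read 11307, 11581, 6989.7 and 8376 on miR-148b replicates 1 to 4 and 5691, 426, 5991 and 4992 on control replicates 1 to 4. Every miR-148b array was above every control array, and control replicate 2 was far below all others, 11.7 times below the next lowest array. The means were 9564 ± 2247 with miR-148b and 4275 ± 2600.0 in control (SD, n = 4 each). The log2 difference was 1.68 (SE 0.81, 95% interval from -0.17 to 3.54, limma adjusted p = 0.846). Without control replicate 2 it was 0.76. Within codes 1, 2 and 3 the miR-148b mean was above the control mean by 1.01, 2.13 and 0.75, and the value of code 2 holds control replicate 2. For the YAP and TAZ targets ANKRD1 and CCN1 control replicate 2 was not the lowest array. ANKRD1 read 9191 there and 6773 to 15991 over all arrays, and CCN1, chosen after its values were seen, read 126902 there and 93009.7 to 182351 over all arrays. The cause of the low CTGF reading on control replicate 2 was not tested.

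ID1 read 14682, 16508, 14567 and 11937 on miR-148b replicates 1 to 4 and 10546, 10536, 14669.9 and 10293 on control replicates 1 to 4. The miR-148b arrays were above control replicates 1, 2 and 4, and control replicate 3, which carries the plus mark, lay among the miR-148b arrays. The log2 difference was 0.33 (95% interval from -0.074 to 0.74, limma adjusted p = 0.846), and it was above 0 within each code, at 0.56, 0.23 and 0.21. The plus mark took 60.1% of the variation of ID1 (share of the sum of squares of log2 values), the treatment 43.0% and code 1 9.09%. These shares overlap because the marks are uneven between the groups.

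TNC read 1129.7, 1259, 1642 and 1777 with miR-148b and 1854, 1587, 2116 and 1845 in control. The groups overlapped only through control replicate 2. The log2 difference was -0.37 (95% interval from -0.80 to 0.070, limma adjusted p = 0.846), and -0.64, -0.16 and -0.054 within codes 1, 2 and 3. The largest of these was in code 1. The dim second TNC probe was at -0.20.

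**Figure D3:**
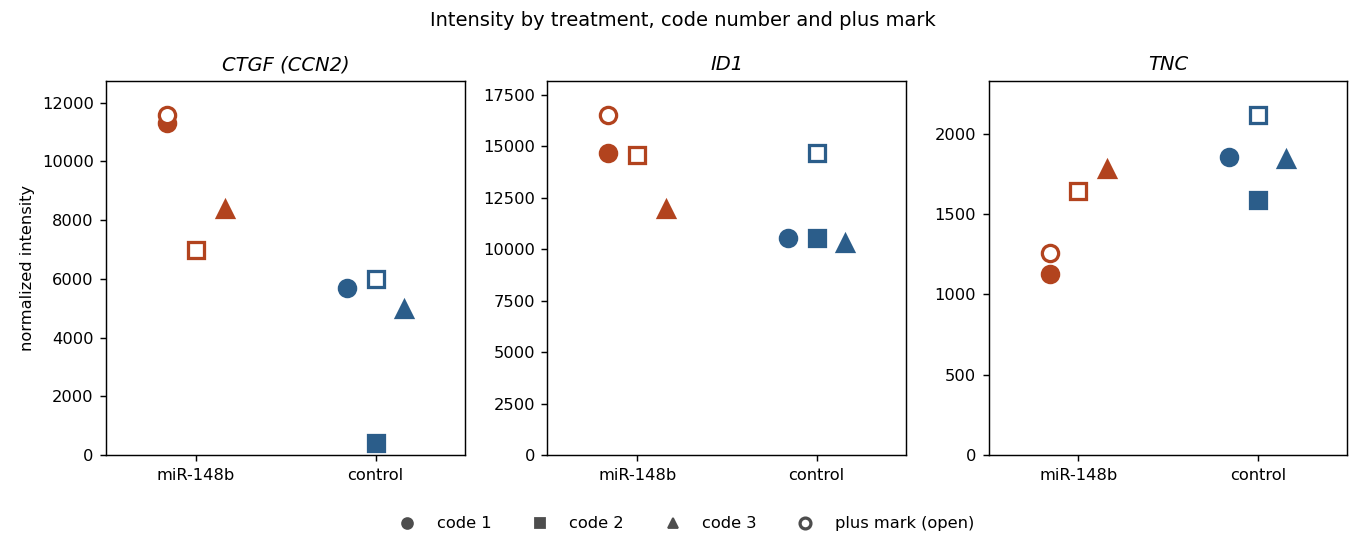
Normalized intensity (linear axis from 0) of CTGF, ID1 and TNC on each array by treatment, with circles, squares and triangles for codes 1, 2 and 3 and open symbols for the plus mark. All 4 miR-148b arrays of CTGF lie above all 4 control arrays, of which control replicate 2 is at 426, while ID1 and TNC overlap.

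CXCR4 was at 0.75 (95% interval from -0.49 to 1.98), with 9217, 8769, 2578 and 2992 on miR-148b replicates 1 to 4 and 6179, 1779, 2692 and 2649 on control replicates 1 to 4. The treatment groups overlapped, and the high arrays were those of code 1 in both. Within codes 1, 2 and 3 the difference of CXCR4 was 0.54, 0.24 and 0.18. EREG was at 0.17 and at -0.10, -0.10 and -0.26 within the codes. SPARC was at -0.37 and at 0.29, 0.064 and -0.32 within the codes, and CD44 at -0.15 and at 0.29, 0.29 and 0.050. For EREG and CD44 the pooled difference and all 3 within-code differences thus had opposite signs, and code 1 holds 2 miR-148b arrays and 1 control array. PTGS2 was at -0.42 (95% interval from -1.33 to 0.49), with -1.65 within code 3, where miR-148b replicate 4 was low, and -0.10 and -0.23 within codes 1 and 2. Without miR-148b replicate 4 it was -0.013.

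The miR-148b effect was also compared between code 1 and the other codes by an interaction term. None of the 8 genes passed (limma adjusted p = 1.00 for each), as 0% of 15869 genes did, and at an unadjusted 0.05 the counts were 0 and 229 (1.44%). TNC had the largest effect relative to its error, -0.53 (SE 0.29). With terms for treatment and code 1, the plus mark passed for none of the 8 genes, where 13.4% of 15872 genes passed, 5.8% higher and 7.62% lower. At an unadjusted 0.05, 4 of the 8 passed (34.6% of all genes), with EREG at 0.48, ID1 at 0.36 and CD44 at 0.42 higher and SPARC at -0.75 lower on the plus arrays. Without miR-148b replicate 1, EREG, ID1 and CD44 passed after adjustment (limma adjusted p of 0.0434, 0.0333 and 0.0264). The share of all genes that passed in that fit was not counted, so these 3 cannot be set against it.

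Other genes that earlier work ties to lung or bone growth of this line, or that partner with the 8 genes, were read from 11 lists. These lists were chosen with earlier results of these data known, so their share of called genes is a description only. Of their 108 measured genes, 25 were higher and 24 lower on the code 1 arrays (45.4%, against 26.2% of all genes), with a median log2 difference of -0.047 against -0.036 over all genes. Those named below had limma adjusted p from 1.97e-06 to 0.0460. For miR-148b minus control 0 of the 108 passed in limma, and 3 did at an unadjusted 0.05.

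Of 16 measured lung colonization genes, 5 were higher and 5 lower on code 1 and 6 did not pass, with a median of 0.18. ROBO1, a receptor of the Slit guidance proteins, read 1127 ± 57.5 on code 1 and 113 ± 47.3 on the others (SD, n = 3 and 5), a log2 difference of 3.51. KYNU, which encodes kynureninase of tryptophan breakdown, was higher as well, at 2.55. PLAAT4, a retinoid-induced acyltransferase, read 1693 ± 583 and 13859 ± 2383, a difference of -2.92, and the chemokine CCL2 was lower at -2.34. The rest that passed, named after their values were seen, were MAN1A1 (2.20), ANGPTL4 (1.97) and CSF3 (1.49), higher, and NEDD9 (-2.06), MMP1 (-1.76) and EFEMP1 (-1.64), lower. The signs were mixed within the lung list, as they were for EREG and SPARC. Neither the lung nor the bone list records which way a gene changes in the selected sublines. The mix of signs was therefore not compared with those cells.

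Of 14 measured bone colonization genes, 5 were higher and 4 lower on code 1 and 5 did not pass, with a median of -0.35. ADAMTS1, a matrix metalloprotease, read 3439 ± 555 on code 1 and 144 ± 51.0 on the others (SD, n = 3 and 5), a log2 difference of 4.52. IL6 read 309 ± 35.5 and 3185 ± 427, a difference of -3.34. IL11, an inducer of osteoclast formation, read 4347 ± 1857 and 13946 ± 4654 (limma adjusted p = 7.50e-05), and RUNX2, a transcription factor of bone, was dim and at -2.25. The rest that passed, named after their values were seen, were JAG1 (1.85), FGF5 (1.27), FST (1.08) and DUSP1 (0.97), higher, and MMP1, which both lists hold. For IL11 and CXCR4, both of the bone set, the differences had opposite signs.

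**Figure D4:**
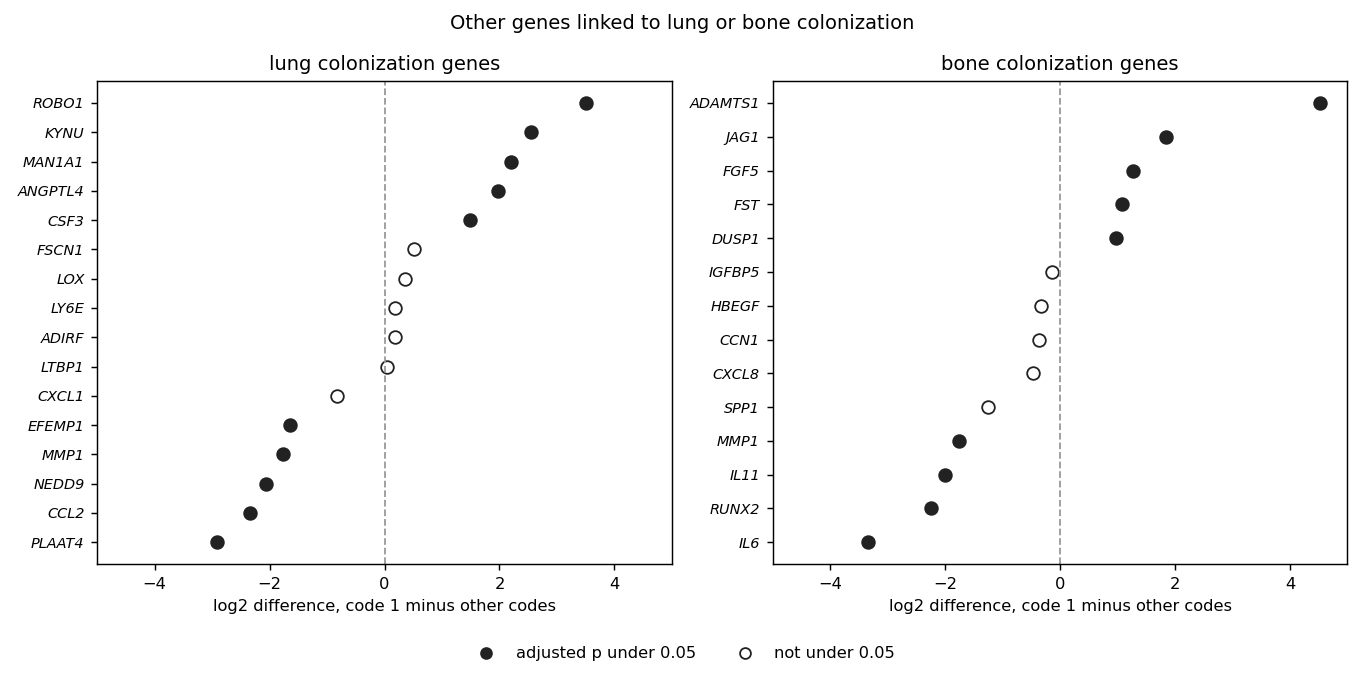
Log2 difference, code 1 minus other codes, of each measured gene of the lung list (left, 16 genes) and the bone list (right, 14 genes), sorted by size, with filled points for adjusted p under 0.05. In both lists genes lie on both sides of 0, 5 higher and 5 lower at left, 5 higher and 4 lower at right.

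Among the partners of EREG, 2 of 9 genes were higher and 1 lower on code 1. The receptor genes ERBB4 and ERBB3 were dim and higher, at 2.21 (with 2 empty cells) and 0.62, and the sister ligand BTC was dim and lower, at -0.76. Of 10 genes of prostaglandin metabolism and signalling, 2 were higher and 1 lower. PLA2G4A, which releases the arachidonic acid that cyclooxygenases use, read 279 ± 61.1 on code 1 and 28.3 ± 5.60 on the others (3.22), and HPGD, which inactivates prostaglandins, 312 ± 6.69 and 38.5 ± 9.42 (3.05). PTGS1, the constitutive cyclooxygenase, was lower at -2.08.

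Among the receptors, 1 of 8 genes of the CXCR4 list passed, the chemokine receptor gene CCR7, which was dim and higher, at 100 on average on code 1 and 27.0 on the others (with 1 empty cell). Of 10 genes around CD44, 3 were higher and 1 lower. The hyaluronan synthase genes HAS2 and HAS3 were higher, at 539 ± 106 on code 1 and 214 ± 62.8 on the others (1.27) and at 301 ± 96.3 and 96.9 ± 25.4 (1.49). CEMIP, a protein of hyaluronan breakdown, was lower, at -1.10, and the splicing regulator gene ESRP2 was higher at 0.53. The dim ESRP1 of the same list, named after its value was seen, was at -0.60 and did not pass. Of 9 genes around VCAM1, 1 was higher and 4 lower, with ICAM1 at -0.78, ICAM2 at -0.83, RDX at -0.79 and RELB at -0.78. The higher gene, named after its value was seen, was MSN (0.64), which is also one of the mesenchymal markers. Of 4 measured genes around IL13RA2, STAT6 was lower, at -1.45.

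Of 9 matrix partners of TNC and SPARC, none was higher and 2 were lower, the matrix protein THBS1 at -1.01 and the integrin subunit ITGAV at -0.54. Of 12 genes around CTGF, 2 were higher and 2 lower: CCN3, of the same family, at 1.74, the transcription factor TEAD4 at 1.13, the dim CCN5 at -2.10 and YAP1 at -0.55. Of 11 genes around ID1, 4 were higher and 4 lower. TCF4, a helix-loop-helix partner of ID proteins, read 1481 ± 234 on code 1 and 50.4 ± 7.64 on the others (4.97), SMAD1 was at 1.74, ID4 at 2.61 and the dim ID2 at -1.34. The rest that passed, named after their values were seen, were SMAD6 (1.17), higher, and SMAD7 (-1.21), BMPR2 (-0.90) and TCF12 (-0.57), lower.

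In the miR-148b comparison the genes of these lists with the smallest p, given as values only, included the YAP target ANKRD1 at 13776.5 ± 2142 with miR-148b and 9132 ± 2270.0 in control (SD, n = 4 each), a log2 difference of 0.61. SMAD5, which carries BMP signals, was at 0.45, ADIRF of the lung list at -0.53, DUSP1 of the bone list at 0.72, TGFBR2 at -0.34 and the IL4 receptor gene IL4R at 0.31. Their limma adjusted p was 0.846 each. This fit had no term for the code, and DUSP1 was also higher on code 1 (0.97).

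The genes most like each member were sought among 2847 genes that were measured on all arrays, were above the median level and ranged over at least 1 log2 unit. These correlations are over 8 arrays that share the code structure and are descriptions. CXCR4 was closest to GTF2E1 (Pearson r = 0.996) and COA7 (0.994), EREG to MLPH (0.994) and RNFT2 (0.991), CD44 to ZNF674-AS1 (0.995) and DUSP10 (0.994), and SPARC to LINC00467 (0.977) and HPRT1 (0.975). CTGF was closest to PALM2AKAP2 (0.994) and FBXO45 (0.993), which read 6228 and 127 on control replicate 2 and at least 25049 and 742 on every other array. ID1 was closest to ZNF267 (0.985) and KLHL4 (0.985). TNC and PTGS2 had weaker likeness, with PAQR8 (0.915) and GSN (0.893) for TNC and HDDC3 (0.892) and SLC7A11 (0.873) for PTGS2.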

How the data were processed

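The deposited table holds probe intensity values on a linear scale, normalized by the authors, for 33446 probes on 8 arrays (0 columns left out). Per the labels, the scanner images were extracted by Agilent Feature Extraction (10.5.1.1). How background was treated, values were normalized and probes were filtered was not given in the sources used here. Log2 was taken of the values as deposited (pseudocount 0), and empty cells stayed empty. GEO's platform annotation gave each probe's gene, and RefSeq gene numbers (GRCh38.p14) its present symbol: 24790 probes had 1 gene, 27 several and 8629 were unnamed here. For each gene the probe of highest mean was kept. Groups came from the titles. Comparisons were fitted with limma 3.58.1 in R 4.3.3 (lmFit, eBayes, two-sided) over all genes and adjusted by Benjamini-Hochberg, threshold 0.05: code 1 minus other codes with treatment as a term, miR-148b minus control without a term, the plus mark with treatment and code 1, and an interaction of treatment and code 1. The fit was tested on simulated data. Alternatives were single arrays left out, other probes, centring, pseudocount 16, a filter on the dimmer 50% of genes, blocks and subsets of arrays. Genes named beyond the members were, per list, up to 4 past the threshold with the largest code 1 difference, or else the 2 with the smallest p, for miR-148b up to 2, and per member the 2 most like it. The members and lists were chosen with earlier results of these data known. Replicate numbers did not pair the arrays throughout: deviations from the group means correlated at 0.71, -0.55, 0.58 and 0.70 for replicates 1 to 4. Arrays correlated at 0.947 to 0.993, and at most 0.0538% of the values of a pair were identical. Each was counted as 1 sample, and whether some share a culture was not tested. The number of arrays limits precision.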

Additional observations from a re-analysis of the deposited data

Results flagged for a closer look

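Within 32 sets of 4 or 5 arrays (the treatment groups, the codes other than 1 and the arrays with no plus mark, for each gene, on log2 values), 7 had an array far from the rest by Dixon's ratio of its gap to the range. Chance flags about 1 in 20 separate sets of like arrays. The sets here share arrays and mix codes, so that rate does not apply to the 7, and some flags repeat the same array and gene. CTGF on control replicate 2 stood apart in the control arrays (0.931), in codes 2 and 3 (0.826) and in the arrays with no plus mark (0.751), at 426 against 4992 or more elsewhere. CXCR4 on the same array stood apart in codes 2 and 3 (0.713, barely past the limit of 0.71), at 1779 against 2578 or more. PTGS2 on miR-148b replicate 4 stood apart in codes 2 and 3 (0.780) and in the arrays with no plus mark (0.809), at 22.1 against 54.2 or more, and its second probe was lowest there too, at 20.8. ID1 on control replicate 3, which carries the plus mark, stood apart in the control arrays (0.931), at 14669.9 against 10546 or less.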

How the results depend on the processing

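For code 1 minus other codes, 4 of the 8 genes passed, and 3 to 4 with single arrays left out. With the miR-148b arrays only 1 passed and 1112 of all genes did, against 4189 in the full set. Over all genes 1971 to 4932 passed with single arrays left out (1971 without control replicate 1), and 2658 of 7986 with the dimmer 50% of genes left out, where fewer genes were tested and neither SPARC nor PTGS2 remained. Both PTGS2 probes averaged (1.11) or a term for the plus mark (0.89) brought PTGS2 past the threshold. ID1 ranged from -0.032 to 0.24 with single arrays left out. For miR-148b minus control, 0 of the 8 and 0 of all genes passed in each of the 19 alternatives, the replicate block among them (0 called, smallest adjusted p 0.533). The direction of EREG, SPARC and CD44 turned with the code number as a block (-0.15, 0.039 and 0.22), with code 1 and the plus mark as added terms (-0.36, 0.35 and 0.053), without the code 1 arrays (-0.29, 0.047 and 0.11) and with replicates 1, 3 and 4 under a replicate block (-0.22, 0.22 and 0.11), and that of SPARC without the plus arrays (0.062). With single arrays left out EREG ranged from -0.12 to 0.57, SPARC from -0.91 to 0.11, CD44 from -0.51 to 0.081 and CTGF from 0.76 to 2.03. The cause of these turns was not tested. For the plus mark 0 to 3 of the 8 genes passed with single arrays left out, with CXCR4 from -0.14 to 0.16 and CTGF from -0.11 to 1.20. The share of all genes passing in those fits was not counted. The fold changes of the dim PTGS2 and SPARC probes are less reliable, since no background level is given.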

Other observations

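CTGF was among the genes that were low on control replicate 2 alone. Of 14820 genes measured on every array, 75 were lowest on control replicate 2 alone by over 2-fold, against 6 to 40 on each other array. By over 8-fold, 17 genes were lowest on that array alone, with 1 on control replicate 4 and 0 on each of the other 6 arrays. Over 2-fold highest alone were 26 genes on control replicate 2 and 11 to 28 on each other array.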
